A study of Drosophila melanogaster with 8 samples.

Results

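The pickpocket genes of Drosophila melanogaster were taken as every gene in the files whose FlyBase symbol is ppk, alone or followed by a number, together with rpk (ripped pocket). This gave 30 of the 13942 genes in the files. Malpighian tubules of adult males and females from Europe (the Netherlands) and from Africa (Zimbabwe) were compared by RNA-seq, in 8 libraries, 2 biological replicates per group. The groups were European males, European females, African males and African females. Flies of all 4 groups came from isofemale lines, for which no transgene and no treatment is named, and shared the same food, 22° and a light phase of 14 hr followed by a dark phase of 10 hr. Each library held tubules pooled over isofemale lines, so that a library gives a mean over lines and not the level of a single genotype. The labels give an age of 2–4 days for all flies.

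Pickpocket genes encode subunits of the degenerin/epithelial sodium channel family (DEG/ENaC). A subunit crosses the membrane at both ends of a large extracellular loop, and several subunits, alike or different, form a sodium-selective pore that amiloride blocks. In vertebrates such channels take up sodium in the distal nephron and the airway. In flies they are best known from sensory neurons, where they serve touch, salt and water taste and the detection of pheromones, and from the tracheal airways, where they help to clear liquid. The Malpighian tubule, the fly's excretory organ, moves sodium, potassium and chloride through its principal and stellate cells.

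Between 19528634 and 27099855 reads per library were assigned to the listed genes. Values are RPKM (reads per kilobase of transcript, scaled to the reads assigned in the library), a level that can be compared between genes. The tissue label was checked against marker genes. The summed RPKM of 10 principal cell genes was between 10600 and 15100 and that of 8 stellate cell genes between 395 and 515 in every library, and genes of other tissues were also present. The summed RPKM of 12 midgut genes was 222 and 303 in European males and 954 and 2760 in African males, against 364 and 558 in European females and 227 and 363 in African females. The sum over 13 ovary genes lay between 5.23 and 25.3 RPKM in males and between 31.1 and 122 RPKM in females. In bulk tissue, fewer cells of a type and less RNA per cell cannot be told apart.

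Reads were found for all 30 pickpocket genes, but most were expressed at a very low level. A share of 13.3% (4 of 30) had a mean above 1 RPKM over the 8 libraries, against 59% of all genes (8231 of 13942). The median over members of the mean RPKM was 0.201, against 2.72 over all genes. The mean lay between 0.1 and 1 RPKM for 17 members and below 0.1 RPKM for 9 members. A single library contained reads of 27 to 30 members, and the reads of all members together numbered 566 to 809 per library.

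**Figure D1:**
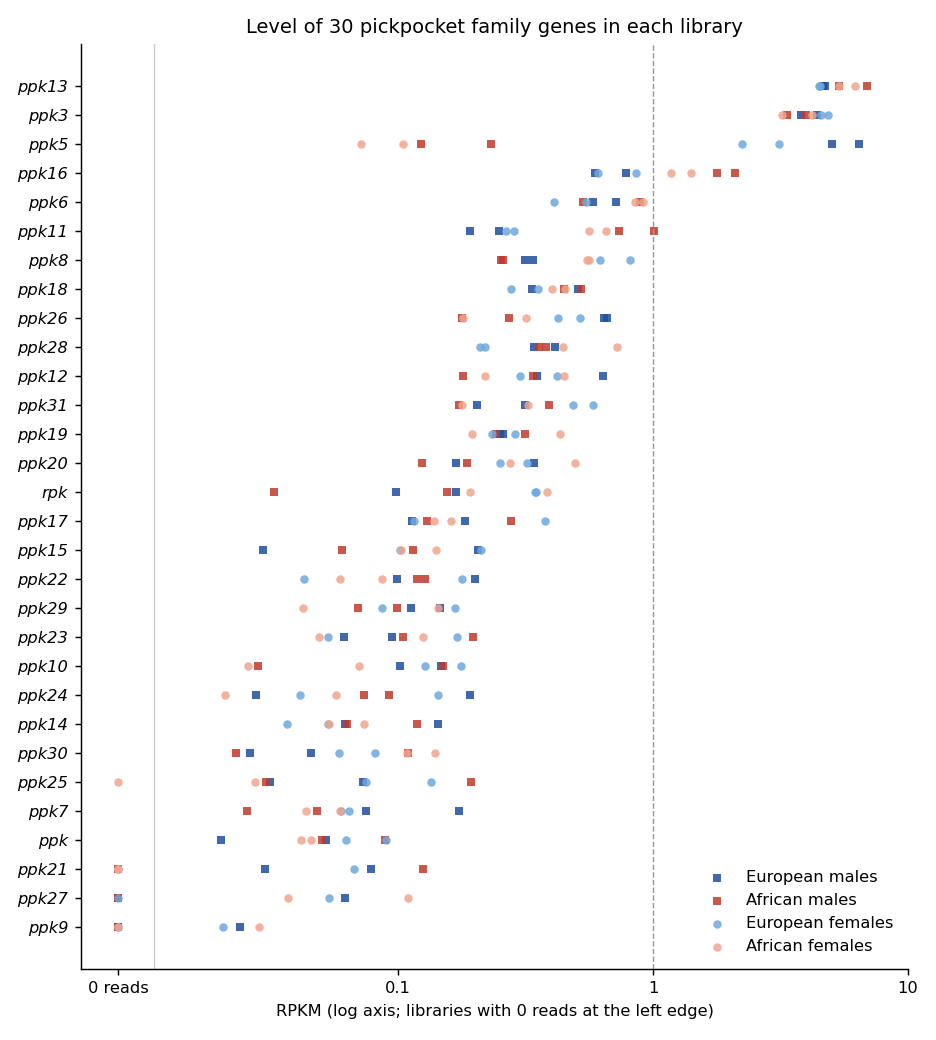
RPKM of the 30 members (rows, by mean level) in each library, on a log axis, with libraries that had 0 reads of a gene at the left edge and a dashed line at 1 RPKM. Squares are males, circles are females, blue is Europe and red is Africa. The genes ppk13 and ppk3 lie above 3 RPKM in all libraries, and the European and African libraries of ppk5 lie far apart.

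The highest mean level was that of ppk13, with 5.27 RPKM, and ppk3 followed with 4.04 RPKM. After these came ppk5 with 2.17 RPKM, a mean over libraries that differ widely. Its libraries ranged between 0.0717 and 6.45 RPKM, so that by group mean it ranked 1 of the 30 members in European males and 3 in European females, against 14 in African males and 19 in African females. In the order of means ppk5 was followed by ppk16 with 1.16 RPKM and ppk6 with 0.68 RPKM. The range of ppk5 overlapped those of all these members, and ranges also overlapped for ppk13 (4.46 to 6.93 RPKM) and ppk3 (3.21 to 4.84 RPKM) as well as for ppk16 (0.591 to 2.09 RPKM) and ppk6 (0.41 to 0.912 RPKM). Together, ppk3 and ppk13 took 41.5 to 50.2% of the members' reads in European libraries and 51.6 to 58.2% in African libraries. No role in the tubule is given here for either gene.

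At the low end, ppk21 had 12 reads over all libraries, ppk27 had 9 and ppk9 had 3. In libraries with 0 reads of ppk9, a count of 0 allows a level of up to 0.0624 to 0.0852 RPKM, the value of 3 reads. For ppk27 this limit was between 0.0897 and 0.111 RPKM. These limits cover counting error only. Genes with fewer than 12 reads in all were not tested, which left 28 members, and ppk27 and ppk9 were left out.

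Population was compared over all 8 libraries with sex in the model, using limma on log2 of TMM-scaled RPKM plus 0.1 and p-values adjusted over 12580 genes by the Benjamini-Hochberg method. Differences are Europe over Africa on this log2 scale, which understates the change of low genes. Of the 28 tested members, 5 (17.9%) differed at an adjusted p under 0.05, and the background was 11.9% of all genes tested. The genes ppk5 and ppk26 were Europe-biased, as were 6.53% of all genes. The genes ppk11, ppk16 and ppk13 were Africa-biased, as were 5.39% of all genes. The count of 5 takes ppk11 and ppk16 separately, though they share all exon bases in the reference annotation. Voom, a weighted limma fit on the reads worked back from RPKM, called the same 5 members, with a background of 14.1%. With library size alone in place of TMM the same 5 members were called, but among all genes 1523 were Europe-biased and 447 Africa-biased (77.3% Europe-biased), against 821 and 678 with TMM (54.8% Europe-biased). The median difference was 0.11 over the members and 0.01 over all genes tested. The other 23 members did not pass, with differences between -0.6 and 0.51 and adjusted p-values of 0.185 or more.

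The largest difference was that of ppk5. It had 5.05 and 6.45 RPKM in European males and 2.23 and 3.11 RPKM in European females, against 0.123 and 0.232 RPKM in African males and 0.0717 and 0.105 RPKM in African females. Every European library was far above every African library, and within each population both male libraries were above both female libraries. In Africa, male replicate 1 and female replicate 2 both had 4 reads of ppk5, so that library size alone separated them. The mean was 4.21 ± 1.9 RPKM in Europe and 0.133 ± 0.0692 RPKM in Africa (SD, n = 4 each), a ratio of 31.7. The log2 difference was 4.07 (SE 0.23, 95% interval 3.54 to 4.61, adjusted p = 0.000205, limma). The 4 European libraries held 541 reads of ppk5 and the 4 African libraries 18. Between males the European mean was 32.4 times the African one, and between females 30.2 times.

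The place of ppk5 within the family differed accordingly. It took 11 to 27.2% of the members' reads in European libraries and 0.342 to 1.26% in African libraries. The members' summed RPKM was 17.9 to 21.5 in Europe and 15.2 to 18.2 in Africa. Without ppk5 the sum was 14.6 to 15.7 RPKM in Europe and 15.1 to 18.1 RPKM in Africa.

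**Figure D2:**
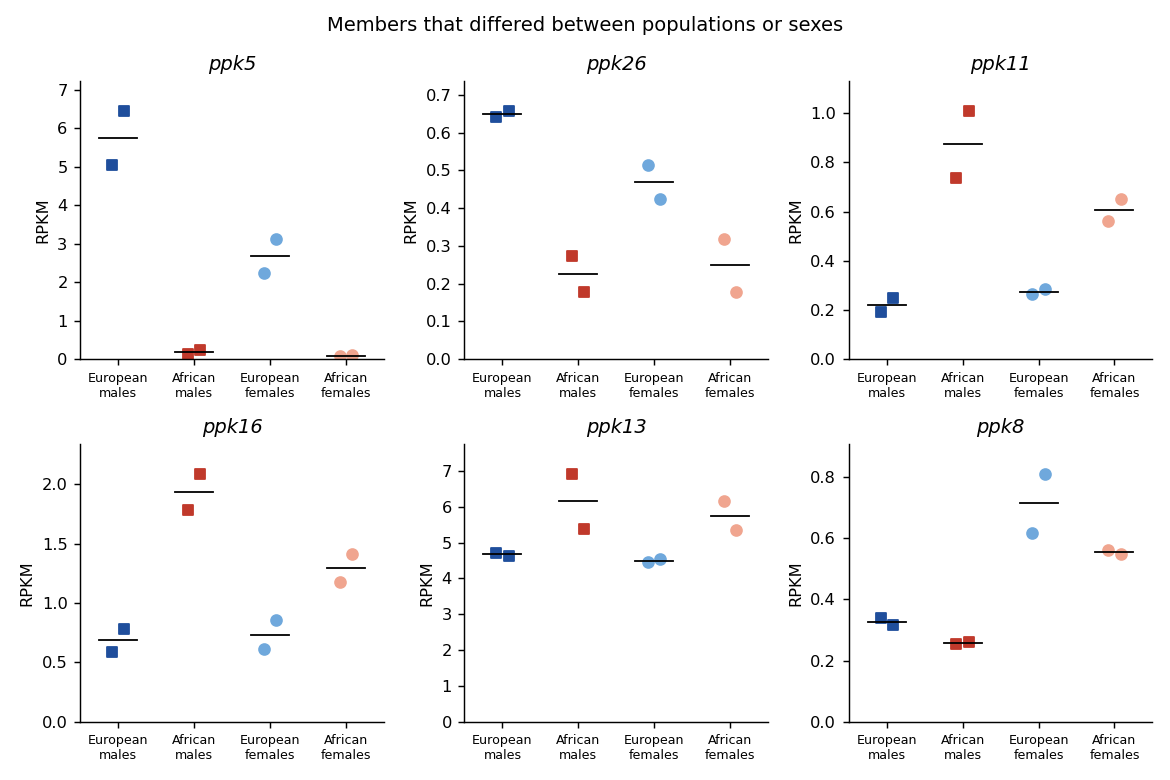
RPKM of the 6 members that differed between populations or sexes, by group, each panel with its own linear axis from 0. Points are libraries, and lines are means of 2 libraries. European libraries lie above African ones for ppk5 and ppk26 and below them for ppk11, ppk16 and ppk13, and male libraries lie below female ones for ppk8.

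The second Europe-biased member was ppk26, which works with ppk in touch and pain sensing by the multidendritic neurons of the larval skin. It had 0.642 and 0.658 RPKM in European males and 0.515 and 0.424 RPKM in European females, against 0.273 and 0.178 RPKM in African males and 0.318 and 0.179 RPKM in African females. The European libraries did not overlap the African ones. The mean was 0.56 ± 0.111 RPKM in Europe and 0.237 ± 0.0699 RPKM in Africa (SD, n = 4 each), from 104 and 45 reads, and the log2 difference was 0.91 (SE 0.21, adjusted p = 0.0319, limma). The call was lost when any library other than African female replicate 1 was left out, with adjusted p-values of 0.0567 to 0.0929 in those 7 fits. Its partner ppk had 13 reads in Europe and 13 in Africa, with a log2 difference of -0.04 (SE 0.20).

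The strongest Africa bias was that of ppk11 and ppk16, neighbours on arm 2L. In flies, ppk11 takes part in salt taste and in clearing liquid from the airways, and both genes are needed at the presynaptic side of the neuromuscular junction for homeostatic plasticity. For ppk11, RPKM was 0.192 and 0.249 in European males and 0.264 and 0.285 in European females, against 0.736 and 1.01 in African males and 0.56 and 0.652 in African females. For ppk16 it was 0.591 and 0.78 in European males and 0.609 and 0.854 in European females, against 1.78 and 2.09 in African males and 1.18 and 1.41 in African females. In both genes all European libraries were below all African ones. The log2 difference was -1.32 for ppk11 (SE 0.22, adjusted p = 0.00997) and -1.15 for ppk16 (SE 0.21, adjusted p = 0.0144, limma for both). The African mean was 2.99 times the European mean for ppk11 and 2.28 times for ppk16.

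These 2 results cannot be taken as separate observations. In the reference annotation, ppk11 and ppk16 occupy the same span on the same strand and share all 3212 of their exon bases, as in a transcript with both reading frames. The files list them with lengths of 1551 and 1598 bases, each shorter than the shared 3212. How reads were divided between them is not stated, and whether they come from the same transcript was not tested. The ratio of ppk16 to ppk11 was 2.31 to 3.13 in European libraries and 2.07 to 2.43 in African libraries.

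**Figure D3:**
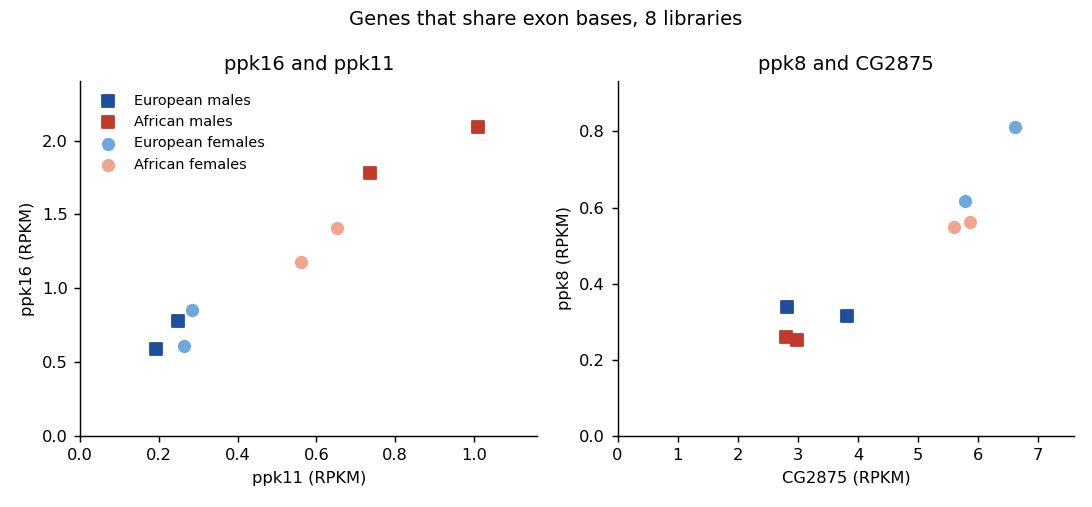
Left, RPKM of ppk16 against that of ppk11, which share all exon bases on the same strand. Right, RPKM of ppk8 against that of CG2875, which share 415 exon bases on opposite strands; each point is a library, and both axes are linear and start at 0. The 4 African libraries lie at the upper end on the left, and the 4 female libraries at the upper end on the right.

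The member with the highest mean over all libraries, ppk13, was Africa-biased by a small amount. It had 4.72 and 4.63 RPKM in European males and 4.46 and 4.53 RPKM in European females, against 6.93 and 5.37 RPKM in African males and 6.17 and 5.34 RPKM in African females. The European libraries lay close together and below all African libraries. The mean was 4.59 ± 0.113 RPKM in Europe and 5.95 ± 0.755 RPKM in Africa (SD, n = 4 each). The log2 difference was -0.45 (SE 0.08, adjusted p = 0.0144, limma). It rests on 625 reads in Europe and 835 in Africa, which makes it the member with the smallest SE.

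The other 2 of the 5 members of highest mean did not pass. The gene ppk3 had 3.8 and 4.38 RPKM in European males and 4.84 and 4.54 RPKM in European females, against 3.98 and 3.34 RPKM in African males and 4.19 and 3.21 RPKM in African females. These ranges overlapped, and the log2 difference was 0.17 (SE 0.11, 95% interval -0.09 to 0.42, adjusted p = 0.37, limma). For ppk6, RPKM was 0.581 and 0.714 in European males and 0.41 and 0.545 in European females, against 0.891 and 0.533 in African males and 0.912 and 0.853 in African females. African male replicate 2 lay within the European range, and the log2 difference was -0.51 (SE 0.22, 95% interval -1.02 to 0.01, adjusted p = 0.185, limma).

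**Figure D4:**
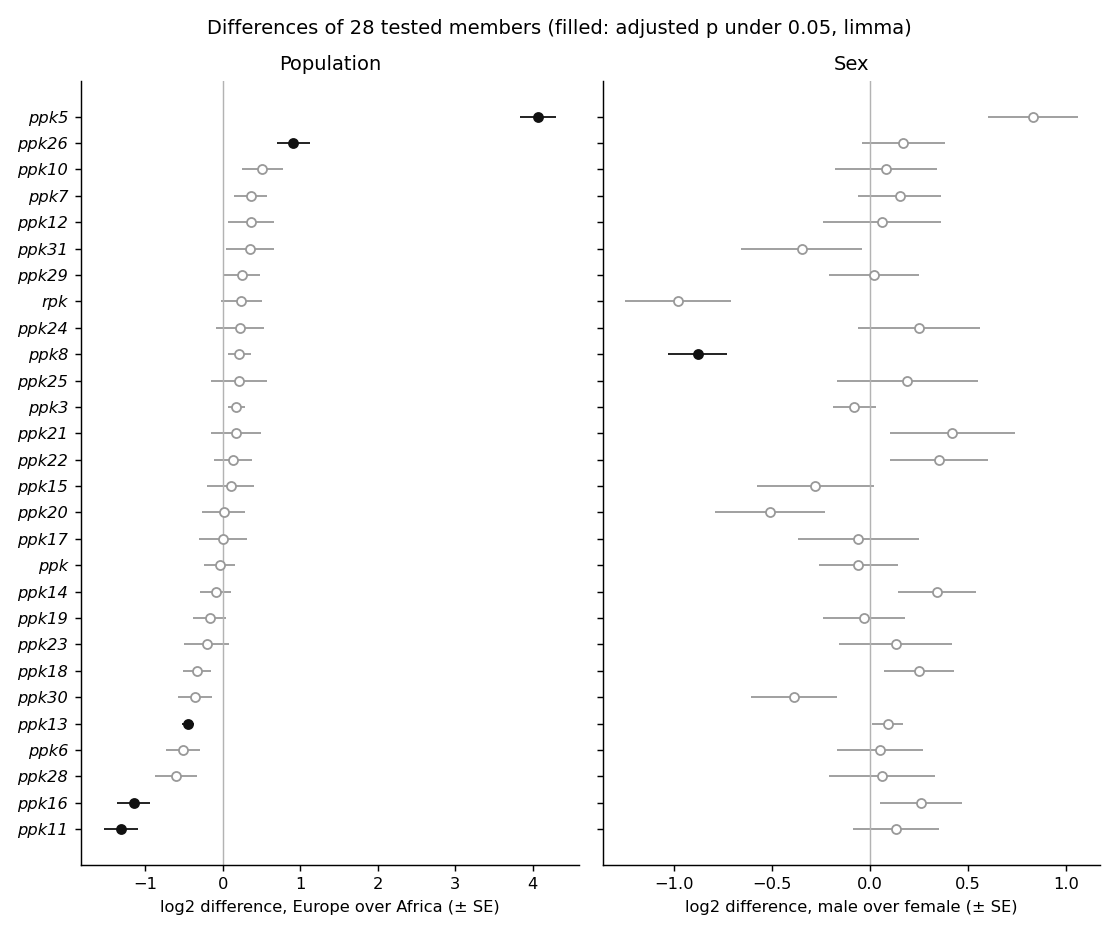
Log2 difference ± SE of the 28 tested members, Europe over Africa (left) and male over female (right), on linear axes of different range; rows are ordered by the population difference, and filled points passed an adjusted p of 0.05 (limma). Of the members, 5 passed for population and 1, ppk8, for sex.

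Of 8 tested members with a known sensory role in flies, 2 passed for population, ppk26 and ppk11, and 0 for sex, by the tests whose background was 11.9% and 11.7% of all genes. The pheromone sensing genes ppk23, ppk25 and ppk29 had 18 to 41 reads in all 8 libraries together and differed between populations by -0.21, 0.21 and 0.25 on the log2 scale (SE 0.29, 0.36 and 0.23), with no call for population or sex. The salt taste and airway gene ppk19 had a mean of 0.258 ± 0.0228 RPKM in Europe and 0.296 ± 0.103 RPKM in Africa (SD, n = 4 each), with a log2 difference of -0.17 (SE 0.21). The water taste gene ppk28 had a mean of 0.295 ± 0.0977 RPKM in Europe and 0.477 ± 0.168 RPKM in Africa (SD, n = 4 each) and did not pass (-0.60, SE 0.27, adjusted p = 0.192, limma). For ppk7, all European libraries were above all African ones, at 0.0595 to 0.173 RPKM against 0.0255 to 0.0593 RPKM, but it had only 21 reads and did not pass (adjusted p = 0.332, limma). The lowest European and the highest African library, replicate 1 of the females in each, both had 2 reads of ppk7, so that library size alone separated them. With ppk5, ppk26 and ppk7, 10.7% of the tested members had every European library above every African one, and 13.2% of all genes had. With ppk11, ppk13 and ppk16, 10.7% had every African library above every European one, and 4.25% of all genes had. This share, too, counts ppk11 and ppk16 separately, though they cannot be taken as separate observations.

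Sex was compared in the same way, with population in the model and differences given as male over female. Of the 28 tested members, 1 (3.57%) differed, ppk8, and the background was 11.7% of all genes tested, 7.62% male-biased and 4.12% female-biased. No member was male-biased by limma at an adjusted p under 0.05. At an unadjusted p under 0.05, ppk5 was higher in males, as were 16.3% of all genes, and ppk8 and rpk were higher in females, as were 10.9% of all genes. Voom called ppk5 as male-biased and ppk8 as female-biased, with a background of 12.3%. The median difference was 0.07 over the members and 0.01 over all genes. The 27 members that did not pass had differences between -0.98 and 0.83.

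The female-biased member ppk8 had 0.338 and 0.315 RPKM in European males and 0.253 and 0.259 RPKM in African males, against 0.617 and 0.811 RPKM in European females and 0.562 and 0.549 RPKM in African females. All male libraries were below all female libraries. The mean was 0.291 ± 0.0419 RPKM in males and 0.635 ± 0.121 RPKM in females (SD, n = 4 each), from 50 and 114 reads. The log2 difference was -0.88 (SE 0.15, 95% interval -1.23 to -0.53, adjusted p = 0.0127, limma). The ratio of male to female mean was 0.457 in Europe and 0.461 in Africa.

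In the reference annotation, 415 of the 2071 exon bases of ppk8 are also exon bases of CG2875, and 106 are exon bases of DIP-alpha, both on the opposite strand. It is not stated that the counting used strand, so reads of the shared bases cannot be told apart. CG2875 had 2.82 and 3.81 RPKM in European males and 2.98 and 2.80 RPKM in African males, against 5.78 and 6.61 RPKM in European females and 5.87 and 5.60 RPKM in African females. Its log2 difference was -0.91 (SE 0.11, adjusted p = 0.00444, limma), close to that of ppk8, and the ratio of ppk8 to CG2875 lay between 0.0827 and 0.123 in all 8 libraries. At the level of CG2875 the 415 bases would hold 348 reads over all libraries, against 164 reads counted for ppk8. The files list ppk8 with a length of 1910 bases, and whether the counted transcript holds all 415 shared bases is not known. The part of CG2875 in the values of ppk8 was not tested. DIP-alpha, which ranged between 0.207 and 0.313 RPKM, differed between the sexes by -0.16 (SE 0.16) and CG13021, also near ppk8, by -0.05 (SE 0.34), and neither these nor AstA-R1 passed for sex.

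Other members share exon bases with a gene on the opposite strand as well, 8 of 30 with ppk8 included. They include ppk31, which shares 19.7% of its exon bases with CG34293, and ppk19, which shares 14.1% with Bub3. Neither member passed for sex or population. At the level of the other gene the shared bases would hold 769 reads for ppk31 and 310 for ppk19. The reads counted were 77 for each, so such values need not pass into the count of a member. For rpk and ppk28 the opposite-strand gene is an antisense RNA that was not analysed here.

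The gene rpk, known from the germ line and the early embryo, was the other member with all male libraries below all female libraries. It had 0.0979 and 0.169 RPKM in European males and 0.156 and 0.0325 RPKM in African males, against 0.343 and 0.349 RPKM in European females and 0.383 and 0.192 RPKM in African females. The log2 difference was -0.98 (SE 0.27, 95% interval -1.61 to -0.35) and did not pass (adjusted p = 0.0589, limma). Of 13 ovary marker genes tested, 0 were male-biased and 7 female-biased, and the summed RPKM is given above. Of 10 fat body genes, 2 were male-biased and 5 female-biased, and their sum was 19.3 to 41.6 RPKM in males and 852 to 1700 RPKM in females. The part of these tissues in the values of rpk and ppk8 was not tested. Members with every female library above every male one made up 7.14% of those tested, and 6.88% of all genes did so; for the opposite pattern the shares were 0 members and 7.37% of all genes.

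The male-over-female difference of ppk5 was 0.83 (SE 0.23, 95% interval 0.30 to 1.37) and missed the threshold (adjusted p = 0.0582, limma). The male mean was 2.16 times the female mean in Europe and 2.01 times in Africa. The African value rests on 4 and 8 reads in the male libraries and 2 and 4 in the female libraries. Of 19 testis genes, 12 were male-biased and 0 female-biased, and their sum was 91.8 to 137 RPKM in European males and 14.7 to 43 RPKM in African males, against 3.1 to 3.84 RPKM in females. Of 11 accessory gland genes, 3 were male-biased and 0 female-biased, and their sum was 55.4 to 78.9 RPKM in European males and 94.6 to 275 RPKM in African males, against 3.81 to 15.8 RPKM in females. The part of these tissues in the values of ppk5 was not tested. With the replicate number as a block the same difference had an adjusted p of 0.0316 (limma), and voom gave 1.08 (adjusted p = 0.0143). Within Europe it was 1.10 (SE 0.22, adjusted p = 0.0616, limma), and it passed with the replicate block (adjusted p = 0.0168) and with voom (adjusted p = 0.0493).

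One-factor fits of 4 libraries each gave ppk5 as the only member called. Between females, the log2 difference of Europe over Africa was 3.81 (SE 0.28, adjusted p = 0.0288), and between males it was 4.34 (SE 0.32, adjusted p = 0.0306, limma for both). The background was 1.65% of genes between females and 1.11% between males. The call between females was lost with the replicate block (adjusted p = 0.0556), and both calls were lost without the minimum of 12 reads (adjusted p = 0.0755 and 0.0793), while the differences stayed as they were. Between males, ppk11 had a difference of -1.68 (SE 0.31, adjusted p = 0.116) and ppk16 of -1.48 (SE 0.26, adjusted p = 0.108), and both passed in one fit of all 8 libraries (adjusted p = 0.0209 and 0.0286). No member was called for sex within Africa, where 0.477% of genes were, or within Europe, where 7.03% were; 1 member had an unadjusted p under 0.05 within Africa and 4 within Europe, and voom called 0 (background 0.525%) and 1 (background 6.34%).

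The interaction of sex and population was called for no member by limma or voom (7 and 1 of 12580 genes, or 0.0556% and 0.00795%), and 1 member, ppk28, had an unadjusted p under 0.05. For ppk5 the male-over-female difference was larger in Europe than in Africa by 0.53 (SE 0.44, 95% interval -0.53 to 1.59). This value was 0.20 with a pseudocount of 0.01, 0.76 with a pseudocount of 1 and 0.23 with voom, and 0.21 to 0.85 with a library left out (lowest without African male replicate 1, highest without African male replicate 2). For ppk8 the interaction was -0.06 (SE 0.32, 95% interval -0.83 to 0.71). These intervals are wide, and each group had 2 libraries.

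The genes next to the called members were examined in the order of the reference annotation. The nearest annotated genes of ppk5, on arm 3L, are Arv1 and Mkrn1 on one side and Rpn10 and COX8 on the other. Their population differences were 0.16, 0.01, 0.06 and 0.12 (SE 0.04 to 0.07), and none passed. Next to ppk11 and ppk16, IP3K1 differed by 0.13 (SE 0.05) and CG4036 by 0.08 (SE 0.07). On the other side CG17633 differed by -3.40 (SE 1.35) and CG4017 by -0.23 (SE 0.28), and none of these passed. The span of the member ppk18 overlaps those of CG17633 and CG4017. It differed by -0.33 (SE 0.18) and did not pass (adjusted p = 0.277, limma). CG17633 ranged between 0.732 and 229 RPKM over the libraries. None of the nearest genes of ppk13 (CG33510, CG33509, CG9259, CG14397) or of ppk26 (sphinx2, CG33278, Tsp66A) passed for population, and CG42661, also next to ppk26, was not tested.

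**Figure D5:**
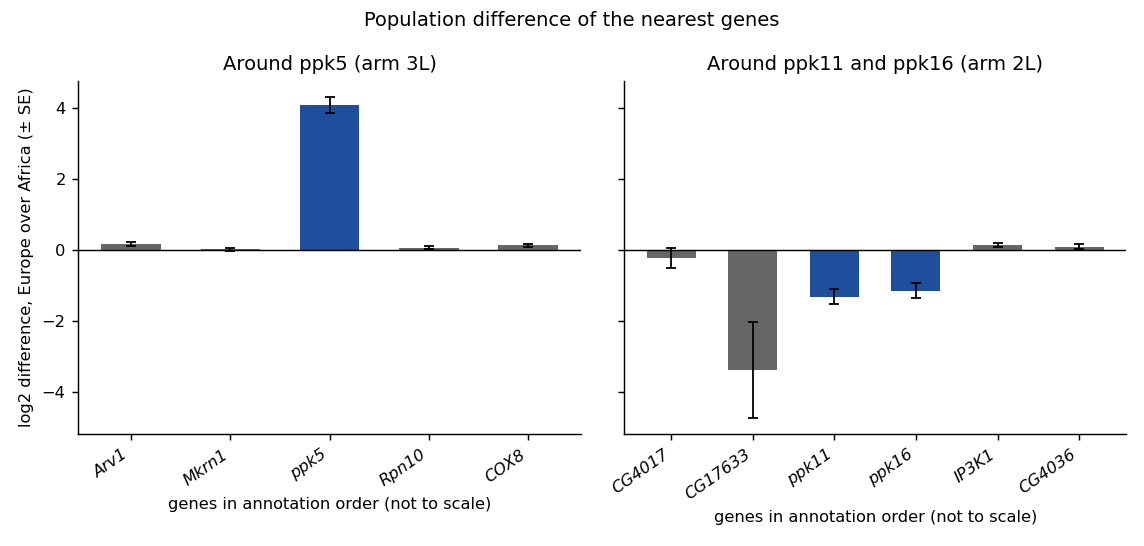
Log2 difference, Europe over Africa, ± SE (bars and whiskers, linear axis) of ppk5 and of ppk11 and ppk16 (blue) and of their nearest annotated genes (gray), in annotation order and not to scale. The bar of ppk5 stands at 4.07 between neighbours of 0.16 or less.

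Members lie next to each other at 3 places in the annotation. Of ppk7 and ppk14 on arm 2L, and of ppk21, ppk20 and ppk30 on arm 3R, none passed for population or sex, and ppk11 with ppk16 was the only such group that did. Over the arms, 9 members lie on 2L, 6 on 2R, 3 on 3L, 9 on 3R and 3 on X.

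Other genes linked to these channels were set beside them. Nach, a family member with another symbol that works in airway liquid clearance, had 0.368 ± 0.0742 RPKM in Europe and 0.367 ± 0.144 RPKM in Africa (SD, n = 4 each), and did not pass for population (-0.03, SE 0.27) or sex (0.07, SE 0.27). Of 9 relatives and regulators (Nach included), among them the ubiquitin ligase Nedd4, which removes such channels from the membrane in mammals, 0 were Europe-biased and 1 was Africa-biased, the kinase Pdk1 (-0.23, SE 0.04, adjusted p = 0.0171, limma), and 0 differed by sex. The median population difference of the 9 was -0.08.

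Of 16 genes for other routes of sodium, 2 were Europe-biased, 0 were Africa-biased, 1 was male-biased and 0 were female-biased. The Na/K-ATPase beta subunit nrv2 differed by 0.96 (SE 0.10, adjusted p = 0.00171), with 4.78 ± 0.519 RPKM in Europe and 2.27 ± 0.194 RPKM in Africa. The beta subunit nrv1 had a far higher level, 730 to 897 RPKM, and did not pass for population (0.04, SE 0.05, adjusted p = 0.643). The sodium/proton antiporter Nha2 differed by 0.36 (SE 0.06, adjusted p = 0.0109), with 99.6 ± 5.49 RPKM in Europe and 73.3 ± 5.6 RPKM in Africa. The cotransporter NKCC was male-biased (0.73, SE 0.14, adjusted p = 0.0211), with 8.17 ± 1.89 RPKM in males and 4.88 ± 0.651 RPKM in females (SD, n = 4 each; limma for these genes). The level of the catalytic pump subunit Atpalpha, between 1120 and 1350 RPKM, exceeded that of every pickpocket gene.

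Of 16 tested genes of the TRP and Piezo families, cation channels many of which are known from sensory cells, 2 were Europe-biased and 2 were Africa-biased. By sex, 0 were male-biased and 1 was female-biased. Piezo, a mechanically gated channel, had 3.42 ± 0.184 RPKM in Europe and 1.43 ± 0.417 RPKM in Africa (SD, n = 4 each; 1.16, SE 0.14, adjusted p = 0.00296, limma). The magnesium-conducting channel Trpm was female-biased (-0.29, SE 0.06, adjusted p = 0.0265, limma). The levels of Trpm (41.4 to 61 RPKM) and of wtrw (71.9 to 97.3 RPKM, Africa-biased) were far above that of the neuron gene elav (1.78 to 2.27 RPKM). Which cells these reads came from was not tested. A further member of this list, Trpml, was listed at 0 in every library and was not tested.

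Markers of cell types in which pickpocket genes are known were read beside the population differences. Of 10 sensory neuron genes, 4 were Europe-biased (Piezo, pain, Gr66a and Gr33a) and 1 was Africa-biased (nan). Their summed RPKM was 15.4 to 17.3 in European libraries and 11.5 to 13 in African libraries. Much of this sum was Piezo (given above) and pain, which had 7.52 ± 0.412 RPKM in Europe and 5.59 ± 0.552 RPKM in Africa. The gene nompC was lower in Europe but did not pass (-0.70, SE 0.25, adjusted p = 0.116, limma). Orco, the co-receptor of olfactory neurons, which marks only that class, had 0.0412 ± 0.0225 RPKM in Europe and 0.0382 ± 0.0311 RPKM in Africa (SD, n = 4 each). Of the genes that differed, Piezo, pain and nan also stand in the counts of the TRP and Piezo families.

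Of 10 general neuron genes, 0 were Europe-biased and 1 was Africa-biased, and their sum was 13.1 to 13.9 RPKM in European libraries and 14.6 to 15.7 RPKM in African libraries. Much of the gap between these sums was the Africa-biased gene, Syt1. It had 1.45 ± 0.0894 RPKM in Europe and 3.12 ± 0.548 RPKM in Africa, while elav had 2.17 ± 0.105 and 1.91 ± 0.144 RPKM (SD, n = 4 each). Of 9 tracheal genes, 0 differed between populations and 1 was male-biased. Their sum was 10.7 and 14.2 RPKM in European males and 26.1 and 26.4 RPKM in African males. In females it was 9.72 and 15.8 RPKM in Europe and 9.17 and 9.75 RPKM in Africa. Much of this sum was Gasp, which ranged between 4.47 and 21.3 RPKM and did not pass for population or sex. No other gene of this list exceeded 1.86 RPKM in any library. Of 10 principal cell genes, 0 were Europe-biased and 4 were Africa-biased, and of 8 stellate cell genes 0 and 3. The part of these cell types in the differences of ppk5, ppk26, ppk11, ppk16 and ppk13 was not tested.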

How the data were processed

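Poly(A) RNA of Malpighian tubules was sequenced as single reads of 50 bases in 8 libraries. The study isolated RNA without DNase treatment and ran all libraries in 1 lane; the labels name no batch. Per its methods, reads were mapped with NextGenMap to a FlyBase transcriptome, and a read mapped to any isoform was assigned to its gene. The deposited values are RPKM over the longest transcript, scaled by the authors to reads assigned to the listed genes, without a composition factor. From these, reads were worked back (100% of values above 0 were whole within 0.01). Symbols came from the reference tables, 13585 by gene ID and 261 by CG number, and 96 IDs had no match; the reference is of another genome build, so it gave only names, gene order and exon overlap. The labels and the study's methods differ on age, anesthetic and sequencer, and the labels are followed here.

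Log2 values of TMM-scaled RPKM (factors 0.927 to 1.04) plus a pseudocount of 0.1, for 12580 genes with at least 12 reads, were fitted with limma 3.58.1 (intensity trend) in R 4.3.3; calls were made at a Benjamini-Hochberg adjusted p under 0.05. Adjusted p-values printed without a tool are from limma. The fits were tested on simulated counts with known changes. These had the same spread setting for all genes and no link between same-numbered libraries, so they give no error rate for these data. Members of the family, gene lists and tests were chosen with earlier results of these data known. Values in every library are given for members called in any of 7 tests and for the 5 of highest mean RPKM; rpk, ppk7 and ppk28 were added after their values were seen. Beside each called member stand the 2 nearest genes on each side. Of each list at most 3 genes with the smallest p are described by value. Values of Nach, Atpalpha, nrv1, wtrw, elav and the sensory neuron genes were added.

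Alternatives were library size alone, median-of-ratios scaling, pseudocounts of 0.01 and 1, no minimum and a minimum of 50 reads, voom on reads worked back, the replicate number as a block, leaving out each library, and one fit of all libraries for the one-factor tests. The replicate numbers of the labels pair the samples only in the alternative with a block, and the fits reported first do not use them. That alternative was run since the deviations of same-numbered libraries correlated at 0.14 to 0.47 for all group comparisons (9785 genes with at least 100 reads). The labels give no source for the pairing. The study calls the replicates biological, and p-values measure the spread between these pooled libraries.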

Additional observations from a re-analysis of the deposited data

Results flagged for a closer look

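In 32 groups of 4 libraries (8 genes by population or sex) 1 library stood apart by Dixon's test, where chance gives about 1 in 20. African male replicate 2 had 0.533 RPKM of ppk6, against 0.853 to 0.912 RPKM in the other African libraries.

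The sexes did not overlap in either population, with opposite directions, in 4 of 28 members (14.3%), against 3.36% of all genes tested. For ppk28, RPKM was 0.34 and 0.412 in European males against 0.21 and 0.219 in European females, and 0.381 and 0.358 in African males against 0.723 and 0.445 in African females. The interaction was 1.08 (SE 0.38, adjusted p = 0.566, limma). The other members, ppk11, ppk25 and ppk, were lower in males in Europe and higher in males in Africa. For ppk11 the interaction was -0.71 (SE 0.37, adjusted p = 0.747), for ppk25 -1.23 (SE 0.60, adjusted p = 0.729) and for ppk -0.61 (SE 0.35, adjusted p = 0.791, limma for these genes). The counts of ppk25 and ppk were 18 and 26 reads in all. In both genes the sexes were separated only by library size, between libraries of equal count. For ppk25, European female and male replicate 1 each had 2 reads, and African female and male replicate 2 each had 1. For ppk, European female replicate 1 and European male replicate 2 each had 3 reads, as did African female and male replicate 2. None of the 4 interactions passed.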

How the results depend on the processing

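No called difference changed sign under any alternative run. The population differences of ppk5, ppk11, ppk13 and ppk16 and the sex difference of ppk8 passed in all 16 alternatives. The population difference of ppk26 passed in 1 of 8 fits with a library left out and in all 8 other alternatives. For the 6 members called in any test and every comparison, 351 of 360 values from alternatives that kept all libraries stayed on their side of the threshold. Most of these were not called to begin with, so this count says little about the calls. Of the rest, 3 were calls lost and 6 were calls gained. The number of members called for sex, 1, was 2 with voom and 2 with the replicate block (ppk5 and ppk8), and 1 to 3 when libraries were left out (3 without African male replicate 1, with ppk5 and rpk). For population it was 5, and 4 to 5 with a library left out. Within Europe the number called for sex was 1 with voom and 1 with the replicate block, against 0. Between females, 1 became 0 without a minimum of reads, 0 with the replicate block and 0 with any library left out. Between males, 1 became 0 without a minimum, 3 in one fit of all libraries and 0 to 1 with a library left out. Beside ppk5, the block changed no call among the members. Among all genes, leaving out a library gave 648 to 1351 calls for sex (1476 with all) and 816 to 1408 for population (1499 with all), and 0 for sex within Africa (60) and Europe (885) and for population between females (208). The lowest and highest counts under the other alternatives were 12 and 435 for sex within Africa, 439 and 1095 within Europe, 11 and 487 between females and 27 and 654 between males (140 in the fit reported), and 1 and 9 for the interaction (7); with the block the count between females was 47. With library size alone 191 genes were Europe-biased and 55 Africa-biased between females, against 140 and 68. The population difference of ppk5 over all libraries lay between 2.09 and 4.80, lowest with a pseudocount of 1. Depth limits most members, since 26 of 30 had a mean below 1 RPKM and each had 203 reads or fewer.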
